A study of Mus musculus with 4 samples.

Results

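Genes of the Notch pathway and of arterial endothelial identity were followed in single-cell RNA sequencing of mouse brain, across libraries, cell classes and vessel segments. They are the receptors Notch1 and Notch4, the ligands Dll4 and Jag1, the Notch target Hey1, the ephrin ligand Efnb2, the connexins Gja4 and Gja5, and the arterial genes Gkn3 and Bmx. These make 10 of the 55487 genes in the count tables, found by symbol. Gkn3 was included for its higher value in the old EC-K4KO library in earlier results of these data, so its values there are a description and not a finding. The other members are known genes of the pathway or of arteries.

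Each of 4 libraries stands for 1 group, WT Cre or EC-K4KO mice that were either young or old. EC-K4KO mice carry the CDH5-CreERT2 driver, active in endothelial cells of all organs after tamoxifen, and floxed Klf4. WT Cre littermates carry the Cre driver and share the C57BL/6J background. Mice of both sexes were used in the study, and neither the sex nor the number of mice in a library is stated. Brains were dissociated and endothelial cells were enriched before loading on a droplet system. The labels name no other treatment. Groups could not be tested against each other with 1 library each. Every interval given is one of counting error and leaves out how mice and cells differ.

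Notch receptors are cut after binding a ligand on a neighboring cell, and the released part acts in the nucleus with RBPJ to switch on targets of the HES and HEY families. In endothelium, DLL4 and Notch signaling favor arterial fate, and HEY1, ephrin-B2, connexin 37 (Gja4) and connexin 40 (Gja5) are classic arterial products. In the brain, endothelial cells form a continuous gradient from arteries through capillaries to veins, and most of these genes fall along it.

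The promoter of Gkn3 is shown because Gkn3 moved in opposite directions between labels at the 2 ages. Gkn3 encodes a gastrokine family protein and marks arterial endothelium in mouse brain. The letters are the 250 bases before its RefSeq start (GRCm38.p6, chr6:87388936-87389185, minus strand), in lower case because none of the 4 motifs searched lies in them.

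Gkn3: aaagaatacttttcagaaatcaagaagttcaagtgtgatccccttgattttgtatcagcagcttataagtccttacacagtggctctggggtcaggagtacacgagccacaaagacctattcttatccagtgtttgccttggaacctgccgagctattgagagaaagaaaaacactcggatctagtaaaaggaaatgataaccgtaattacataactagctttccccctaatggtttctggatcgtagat

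The motifs were RBPJ (TGGGAA), KLF (CACACCC), the HES and HEY E-box (CACGTG) and SOX (ACAATG), read on both strands in the 300 bases from 250 before to 50 after each start. They were found in 25.6%, 7.95%, 7.15% and 12.6% of 32851 mouse promoters. Of the members, 9 of 10 had a promoter in the table, and Hey1 was the one without. RBPJ letters occurred in 1 member, Bmx, and SOX letters in Jag1 and Notch4, while the KLF and E-box letters occurred in no member. The 3 matches are shown with the bases around them, with the motif in capitals and SOX as its reverse complement. They lie at chrX:164258354-164258383, chr2:137116667-137116696 and chr17:34564272-34564294, in that order.

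Bmx: ccaagagctgccTGGGAAaagcaggagccg
Jag1: gcgggcacgcgtCATTGTgttacctgcagc
Notch4: gggtgtccaggaCATTGTgtgac

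These matches begin 178, 164 and 11 bases before the start. They describe the letters only.

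Klf4, the gene floxed in EC-K4KO mice, went against the labels. Endothelial-like cells held 1710 Klf4 CPM (UMI counts divided by all UMIs of those cells and scaled alike in each library, with a UMI marking 1 captured RNA molecule) in young WT Cre and 3278 CPM in the young EC-K4KO-labelled library. The old libraries held 2093 and 3288 CPM. The counts do not show which exons were read. EC-K4KO libraries are therefore named as labelled, and a difference between genotypes is one between labels only. After filters and doublet removal 4146 to 6555 cells were kept per library, with 6 to 10 barcodes shared between any 2 libraries. Clusters with endothelial markers (Cldn5, Pecam1, Cdh5, Flt1, Ly6c1 and Esam) held 2759, 3342, 2177 and 1910 cells and 25754495, 43481952, 15250059 and 10821379 UMIs. Their median depths were 6328, 9875.5, 4694 and 3770 UMIs per cell. Values are given in the order young WT Cre, young EC-K4KO-labelled, old WT Cre, old EC-K4KO-labelled unless stated otherwise.

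The receptors differed by less than 1.5-fold in every comparison of endothelial-like cells. Notch1, the main endothelial Notch receptor (GRCm38 chr2:26457903-26516663), held 233.6, 242.8, 259.6 and 259.6 CPM. Its old pair was level, and its old libraries lay slightly above its young ones. Notch4, a receptor largely restricted to endothelium (chr17:34564268-34588503), held 54.8, 63.2, 47.9 and 56.2 CPM. It was higher in the library labelled EC-K4KO at both ages and lower in the old libraries than in the young ones of the same label, each by less than 1.5-fold. Genes of the opposite strand overlap Notch1 and Notch4, and a miRNA gene of the same strand overlaps Notch1.

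Of the ligands, Dll4 (chr2:119325784-119335962) held 108.4, 106.9, 115.4 and 101.0 CPM. The 95% Poisson intervals of the young pair overlapped, and those of the old pair did not (110 to 121 and 95.1 to 107 CPM). Jag1 (chr2:137081456-137116644), which acts in endothelium and in the vessel wall, held 89.5, 79.8, 96.1 and 78.6 CPM. Jag1 was lower in both EC-K4KO-labelled libraries, with a log2 ratio of -0.17 (95% interval -0.24 to -0.09) between the young libraries. Between the old ones it was -0.29 (-0.41 to -0.17). Each was under 1.5-fold.

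Hey1 (chr3:8663359-8667256), a transcriptional repressor that Notch switches on, was higher in old libraries. It held 110.2 CPM in young WT Cre and 130.5 CPM in the young EC-K4KO-labelled library, against 209.7 and 206.4 CPM in the old libraries. Both old libraries lay above both young ones, and the old pair did not separate. The log2 ratio of old over young was 0.93 (0.85 to 1.00) in WT Cre and 0.66 (0.59 to 0.73) between the EC-K4KO-labelled libraries. Efnb2 (chr8:8617434-8661242), the ligand that marks arteries against EphB4 on veins, held 66.9, 80.2, 80.4 and 79.0 CPM. Its young WT Cre level was the lowest, and the other 3 libraries had overlapping intervals. Genes of the same strand overlap Efnb2, so the split of its reads is uncertain.

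The connexins form gap junctions between endothelial cells. Gja4 (connexin 37, chr4:127311421-127314039) held 29.1, 29.0, 43.1 and 61.4 CPM. The young libraries were level (log2 ratio -0.01), but not without the cells that held a mural marker UMI (-0.43). The old EC-K4KO-labelled library was the highest, at a log2 ratio of 0.51 (0.35 to 0.67) to old WT Cre. Gja5 (connexin 40, chr3:96904693-97077416) had 90, 131, 49 and 50 UMIs in all, or 3.5, 3.0, 3.2 and 4.6 CPM, with overlapping intervals. It stayed under the minimum mean of 10 CPM set for calls, so 9 of 10 members could be called in endothelial-like cells.

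Gkn3 (chr6:87383256-87388935) had levels of 400.9, 276.0, 278.8 and 598.2 CPM. The library labelled old EC-K4KO was the highest and young WT Cre the next, and the other 2 lay together with overlapping intervals. Under the EC-K4KO label Gkn3 was thus lower among young libraries (log2 ratio -0.54, -0.58 to -0.50) and higher among old ones (1.10, 1.05 to 1.16). Bmx (chrX:164192842-164258193), a cytoplasmic tyrosine kinase of arterial endothelium, held 67.1, 86.6, 67.4 and 96.6 CPM. Both EC-K4KO-labelled libraries lay above both WT Cre libraries, with log2 ratios of 0.37 (0.29 to 0.45) and 0.52 (0.39 to 0.64).

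**Figure D1:**
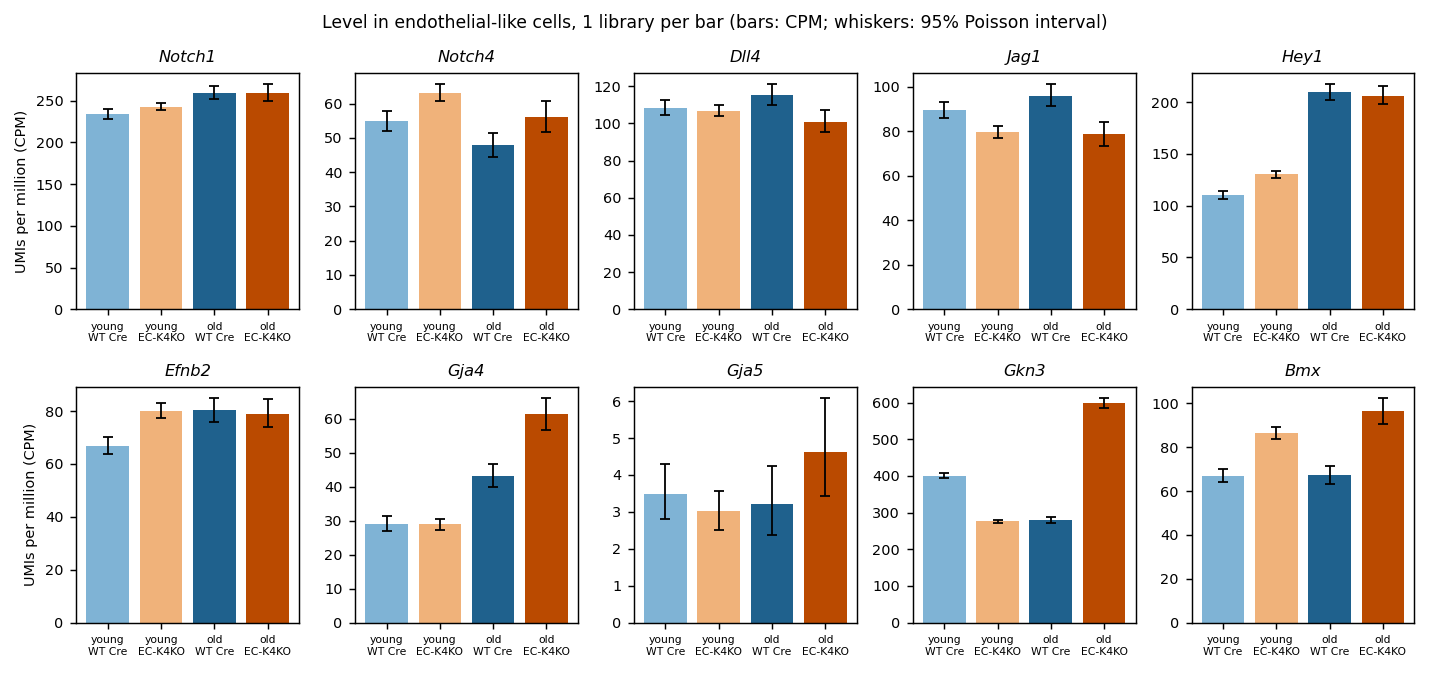
Level of each member in endothelial-like cells, in CPM (vertical axes, starting at 0), with 1 bar per library and the 95% Poisson interval as whiskers. Hey1 stands at 110.2 and 130.5 CPM in the young libraries and 209.7 and 206.4 CPM in the old ones, and Gkn3 is highest in the old EC-K4KO-labelled library (598.2 CPM).

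A gene was called when its ratio passed 1.5-fold. Of the 9 members, 0 were called in the young pair, where 1.38% of 8433 genes were called higher and 1.13% lower. In the old pair 1 was called higher, Gkn3, against 1.4% of all genes higher and 1.29% lower. With age in WT Cre 1 was called higher, Hey1, against 4.28% of genes higher and 6.89% lower. With age between the EC-K4KO-labelled libraries 3 were called higher, Gkn3, Gja4 and Hey1, against 4.21% higher and 5.54% lower. Of these, Gja4 (1.08) was under 1.5-fold with cells weighted equally (0.53), and Hey1 (0.66) with segment shares held equal (0.51). No member was called lower in these cells. Gkn3 was chosen from the old EC-K4KO-labelled library, so its calls in the old pair and with age between the EC-K4KO-labelled libraries only describe the choice. The median log2 ratio of the members was 0.06, -0.00, 0.10 and 0.10 in these comparisons, and that of all genes was -0.04, -0.02, -0.18 and -0.15. The pairs share libraries, so their values are set side by side and were not combined. The young pair count is 1, with Gkn3 lower, under the stricter cell filter and when segment shares are held equal. The old pair count is 3, with Gja4 and Bmx added, when segment shares are held equal.

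**Figure D2:**
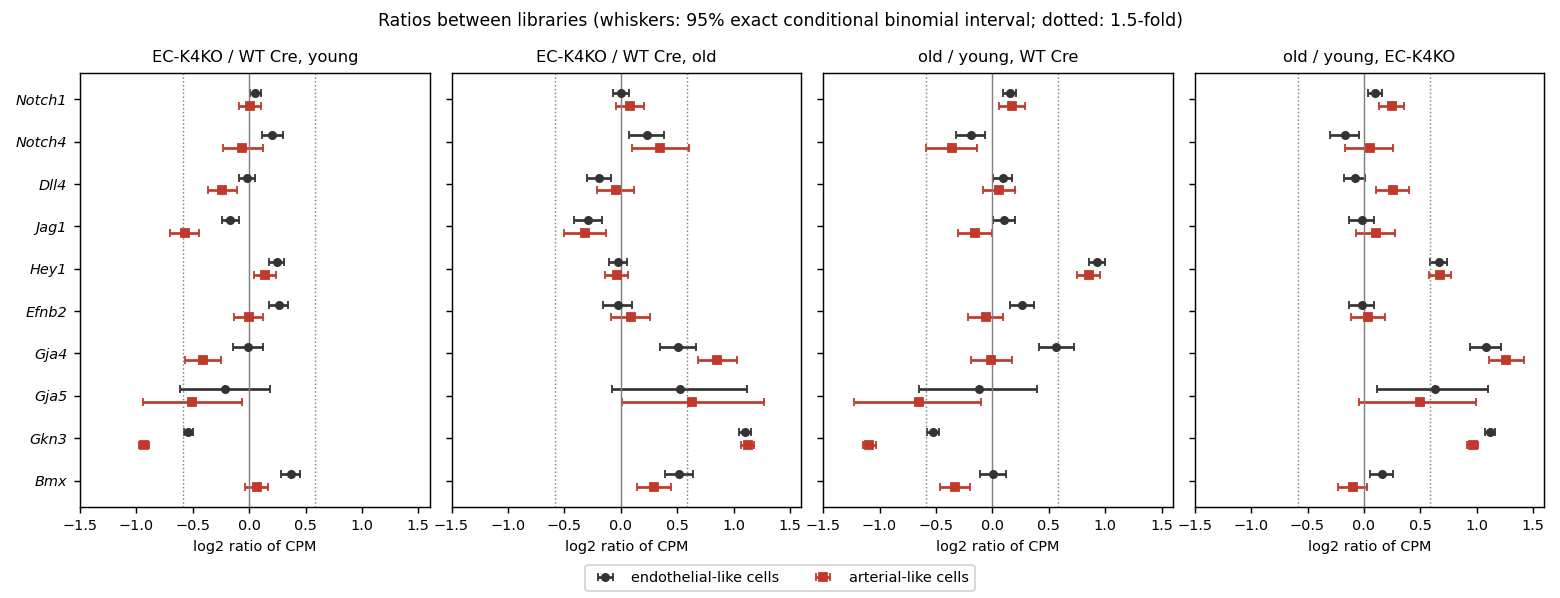
Log2 ratio of CPM for each member (rows) in the 4 comparisons (panels), in endothelial-like cells (circles) and arterial-like cells (squares), with 95% exact conditional binomial intervals, a line at 0 and dotted lines at 1.5-fold. Gkn3 lies left of 0 in the young pair (-0.54 and -0.93) and right of it in the old pair (1.10 and 1.12), and Hey1 lies right of 0 in both age comparisons.

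Endothelial-like cells were clustered again without the members, and the sub-clusters were named from arterial, capillary and venous markers. Arterial-like cells made up 10.6%, 14.7%, 16.2% and 15.7% of endothelial-like cells (292, 491, 352 and 299 cells). Capillary-like cells made up 68.1%, 59.7%, 63.5% and 65.8%, and venous-like cells 14.5%, 21.1%, 14.0% and 13.6%. Naming each cell by its own marker UMIs gave arterial-like shares of 7.18%, 5.06%, 13.5% and 11.4%, so which young library has the smaller share depends on the naming. Endothelial-like cells of unnamed sub-clusters (6.81%, 4.58%, 6.38% and 4.97%) belong to no segment but count in the endothelial-like sums. Among them is sub-cluster 10, led by mural genes such as Tagln and Acta2, with 19, 47, 28 and 10 cells. Capillary-like cells of the 4 libraries came in different parts from 5 sub-clusters: 991 of the 1994 capillary-like cells labelled young EC-K4KO lay in sub-cluster 3, 799 of 1382 in old WT Cre and 715 of 1257 labelled old EC-K4KO lay in sub-cluster 1, and 804 of 1879 in young WT Cre lay in sub-cluster 0. Arterial-like cells came from sub-cluster 5 (led by S100a4, Ccn3 and Npnt) and sub-cluster 7 (led by Fbln5, Cytl1 and Mgp), and 189 of 292 young WT Cre arterial-like cells lay in sub-cluster 7 against 201 of 491, 113 of 352 and 100 of 299 in the others.

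Among the 3 named endothelial segments, every member had its highest level in arterial-like cells in each library, which is what arterial genes were chosen for. The steepness of the gradient differed. Notch1 was shallow, from 312, 314, 353 and 373 CPM in arterial-like cells to 191, 202, 197 and 191 CPM in venous-like cells. Dll4 went from 209, 178, 218 and 212 CPM in arterial-like through 118, 124, 116 and 90.3 CPM in capillary-like to 28.1, 37.9, 25.9 and 20.2 CPM in venous-like cells. Jag1 had no step between capillary-like (63.3, 65.5, 63.5 and 56.1 CPM) and venous-like cells (67.0, 63.1, 67.8 and 57.8 CPM), and only its arterial-like levels stood apart. Gja5 had 0 UMIs in venous-like cells of all 4 libraries.

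Within arterial-like cells Hey1 held 313, 345, 565 and 551 CPM. The log2 ratios with age were 0.85 (0.75 to 0.96) in WT Cre and 0.67 (0.58 to 0.77) between the EC-K4KO-labelled libraries. They were 1.08 and 0.72 in sub-cluster 5 alone, and 0.37 and 0.47, both under 1.5-fold, in sub-cluster 7 alone. Capillary-like cells showed a smaller one, from 103 and 116 CPM to 143 and 156 CPM, with log2 ratios of 0.47 (0.35 to 0.59) and 0.44 (0.31 to 0.55). Hey1 was 5.6, 20.4, 12.5 and 11.8 CPM in venous-like cells. With the segment shares held equal across libraries, endothelial Hey1 was 118, 135, 185 and 192 CPM, and the age ratios were 0.64 and 0.51.

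Efnb2 held 184, 183, 177 and 188 CPM in arterial-like cells, with intervals that overlap in all 4. Jag1 held 211, 142, 190 and 153 CPM there, lower in both EC-K4KO-labelled libraries, with log2 ratios of -0.57 (-0.70 to -0.44) among young and -0.31 (-0.50 to -0.13) among old libraries. Taken alone, sub-clusters 5 and 7 gave Jag1 ratios of -0.66 and -0.29 for the young libraries. For the old libraries they gave -0.25 and -0.40. Naming each cell by its own marker UMIs gave -0.19 and -0.26.

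Gja4 held 135, 101.5, 134 and 243 CPM in arterial-like cells. It was lower in the young EC-K4KO-labelled library (log2 ratio -0.41, -0.57 to -0.25) and higher in the old EC-K4KO-labelled library (0.86, 0.68 to 1.03). The old difference stood in both arterial-like sub-clusters, at 0.93 and 0.68. The young one turned to 0.23 when cells were named one by one. With age between the EC-K4KO-labelled libraries the Gja4 ratio was 1.26, and 0.49, under 1.5-fold, when cells were named one by one. Gja5 stood at 19.0, 13.4, 12.1 and 18.7 CPM from 43 to 105 UMIs per library, and its young ratio also turned, from -0.51 to 0.27.

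The markers that named the segments also differed among arterial-like cells. The 7 arterial markers summed to 5413, 3330, 6385 and 6386 CPM, and the 6 capillary markers to 2384, 2846, 1644 and 1458 CPM, with all 6 capillary markers higher and 1 of 7 arterial markers higher under the EC-K4KO label in the young pair, where Dll4, Jag1, Gja4, Gja5 and Gkn3 were lower. Dll4 had a log2 ratio of -0.24 there (-0.36 to -0.11), and -0.02 when cells were named one by one. Their part in these ratios was not tested.

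Bmx was level in arterial-like cells of the young pair (274 and 287 CPM) and 218 and 268 CPM in the old pair. In capillary-like cells it held 35.6, 52.7, 23.8 and 53.8 CPM, with both EC-K4KO-labelled libraries above both WT Cre libraries and log2 ratios of 0.56 (0.40 to 0.73) and 1.17 (0.88 to 1.47). In venous-like cells it held 5.6, 17.98, 6.9 and 26.1 CPM, in the same arrangement. The sub-clusters that supply the capillary-like cells differ between the young libraries, as given above.

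**Figure D3:**
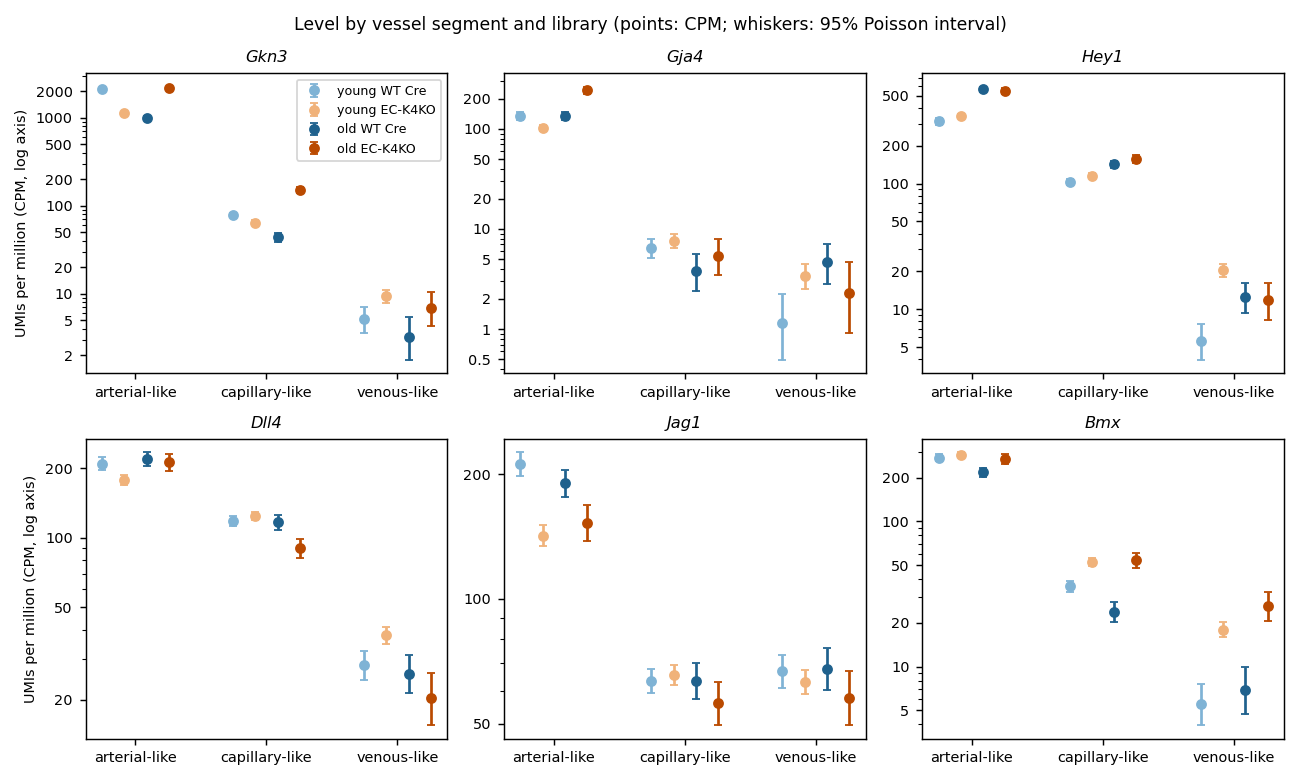
Level of 6 members by vessel segment (horizontal axes) in CPM on log axes, with 1 point per library and the 95% Poisson interval as whiskers. All 6 are highest in arterial-like cells, Gkn3 in young WT Cre (2141 CPM) and the old EC-K4KO-labelled library (2193 CPM) stands above the other 2, and Bmx is higher in the EC-K4KO-labelled libraries in capillary-like and venous-like cells.

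Gkn3 in arterial-like cells reached 2141 CPM in young WT Cre and 2193 CPM in the old EC-K4KO-labelled library. It held 1124 CPM in the young EC-K4KO-labelled library and 1006 CPM in old WT Cre. The levels thus fell into a high and a low pair that cross both age and label. The log2 ratio between labels was -0.93 (-0.97 to -0.89) for young and 1.12 (1.06 to 1.19) for old libraries. With age it was -1.09 (-1.15 to -1.03) in WT Cre and 0.96 (0.92 to 1.01) between the EC-K4KO-labelled libraries. Since Gkn3 was chosen from the old EC-K4KO-labelled library, the old pair and that age ratio only describe the choice. Naming each cell by its own marker UMIs gave -0.41 between the young libraries, under 1.5-fold, 1.24 between the old ones, and -1.18 and 0.46 with age.

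The 2 sub-clusters were also read alone. Sub-cluster 5 held 1135, 770, 775 and 1684 CPM, and sub-cluster 7 held 2840, 1751, 1544 and 3476 CPM. The young pair ratio was -0.56, under 1.5-fold, and -0.70 in them, against -0.93 over all arterial-like cells, whose young libraries draw on the 2 sub-clusters in different parts. With age in WT Cre it was -0.55, also under 1.5-fold, and -0.88, against -1.09. Gkn3 is itself among the leading genes of sub-cluster 7. Per cell, the median was 1216, 554, 577 and 1669 Gkn3 UMIs as CPM of the cell, with quartiles of 222 to 2865, 57.8 to 1566, 79.3 to 1361 and 561 to 3090. The top 5% of arterial-like cells held 22.7% to 32.3% of their Gkn3 UMIs. Capillary-like cells held 78.6, 64.4, 44.0 and 151 CPM, with the highest level in the old EC-K4KO-labelled library, from which Gkn3 was chosen. Of endothelial Gkn3 UMIs, 73.5% to 85.0% lay in arterial-like cells.

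**Figure D4:**
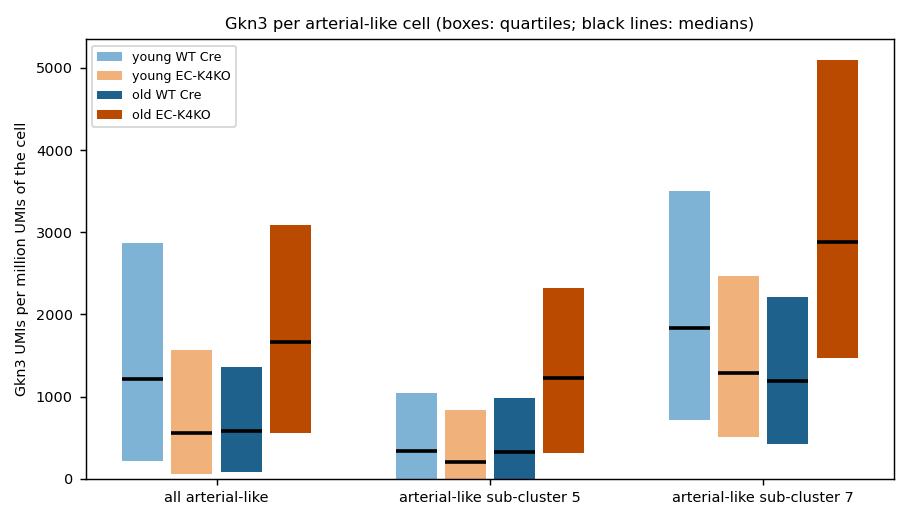
Gkn3 level of each cell in CPM (vertical axis) for all arterial-like cells and their 2 sub-clusters, with boxes from the lower to the upper quartile and black lines at the medians, 1 box per library. The medians over all arterial-like cells are 1216, 554, 577 and 1669, and the old EC-K4KO-labelled library has the highest box in each set.

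Shares of cells with a UMI were compared after each cell was thinned to 1000 UMIs. For Gkn3 they were 10.5%, 10.4%, 10.2% and 16.8% of endothelial-like cells, and 20.6%, 26.7%, 19.5% and 25.4% without thinning. Arterial-like cells had 60.3%, 45.2%, 44.9% and 67.2% after thinning. Microglia-like cells, which should lack the gene, had 1.22%, 0.523% and 0.167% in the libraries with a UMI and 0 of 1191 cells in old WT Cre, which allows up to 0.252% (3 counts of the total), at median depths of 5525, 5608.5, 5300 and 4615.5 UMIs. For Hey1 the shares were 8.34% and 10.9% in young and 13.6% and 16.3% in old libraries after thinning, while the unthinned shares were 35.1%, 45.8%, 34.96% and 36.2%. Several members in 1 cell were seen mostly in the arterial-like segment. Of arterial-like cells 35.6%, 30.1%, 31.2% and 37.5% had UMIs of 3 or more members after thinning, against 3.09% to 5.09% of capillary-like cells and 0% to 0.329% of venous-like cells.

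Called members were then counted by cell set, with the shares of all genes beside them. Calls of Gkn3 in the old pair, and with age between the EC-K4KO-labelled libraries, only describe its choice. In arterial-like cells, with 10 members at level among 8313 genes, 1 was lower in the young pair (Gkn3), against 2.57% of genes lower and 2.53% higher. In the old pair 3 were higher (Gkn3, Gja4 and Gja5), against 3.24% higher and 3.33% lower. Gja5 rests there on 43 and 47 UMIs, with log2 ratios of 1.15 in sub-cluster 5 and 0.13, under 1.5-fold, in sub-cluster 7. With age in WT Cre 1 was higher (Hey1) and 2 were lower (Gkn3 and Gja5), against 4.38% and 9.79%. That Gja5 ratio rests on 77 and 43 UMIs and goes from -0.65 to 0.23 in sub-cluster 5 alone and -0.24 in sub-cluster 7 alone. With age 3 were higher (Gja4, Gkn3 and Hey1) between the EC-K4KO-labelled libraries, against 5.02% higher and 10.2% lower. In capillary-like cells (8 members, 8342 genes) the young pair had 0, against 1.51% higher and 1.55% lower, and the old pair 2 higher (Gkn3 and Bmx), against 1.79% and 1.89%. With age 1 was lower in WT Cre (Gkn3), against 3.69% higher and 6.69% lower, and 1 was higher under the other label (Gkn3), against 3.69% and 6.01%.

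Venous-like cells (7 members, 8406 genes) had 3 members called higher in the young pair (Bmx, Hey1 and Efnb2), against 1.59% of genes higher and 1.65% lower. Those calls rest on few UMIs. In the young libraries venous-like cells held 2.26% and 6.93% of 1727 and 3766 endothelial Bmx UMIs. They held 1.37% and 5.21% of 2838 and 5676 Hey1 UMIs, and 3.54% and 6.37% of 1722 and 3486 Efnb2 UMIs. Their old pair had 1 higher (Bmx) and 1 lower (Efnb2), against 2.89% and 3.35%. The young venous-like cells came mostly from sub-cluster 6 (284 of 400 and 416 of 704), and the old ones mostly from sub-cluster 4 (257 of 304 and 218 of 259), so age ratios there set different sub-clusters side by side. The young libraries also differed from each other in these parts. With age 2 were higher in WT Cre (Hey1 and Efnb2), against 5.27% higher and 12.6% lower, and 2 were lower between the EC-K4KO-labelled libraries (Dll4 and Hey1), against 5.83% higher and 13.4% lower. In smooth muscle-like cells (5 members, 7797 genes) 0 were called in the young pair (1.23% higher, 1.68% lower) or the old pair (3.62% and 3.35%). Jag1 alone was lower in both age comparisons, against 4.36% higher and 6.25% lower in WT Cre and 5.22% and 5.39% under the other label.

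Most members were endothelial, and some were not. Between 84.3% and 92.3% of Dll4 UMIs, 86.4% and 92.4% of Bmx UMIs, and 88.6% and 93.7% of Gkn3 UMIs in kept cells lay in endothelial-like cells. For Gja4 the share was 27.7%, 15.8%, 21.8% and 37.5%, and for Jag1 it was 61.7%, 46.9%, 64.5% and 67.3%. Smooth muscle-like cells held 385, 451, 536 and 541 CPM of Gja4 and pericyte-like cells 346, 409, 529 and 493 CPM, higher in the old libraries in both classes. Pericyte-like cells came from clusters 11 and 21 in different parts, with 18 of 240, 87 of 341, 84 of 240 and 25 of 133 cells in cluster 21. Notch1 was higher in pericyte-like cells (458, 371, 336 and 391 CPM) than in endothelial-like cells in each library, and lower in smooth muscle-like cells (92.98, 83.4, 81.8 and 90.3 CPM). Hey1 outside endothelium was seen in ependymal-like (85.4, 73.5, 111 and 121 CPM) and astrocyte-like cells (49.0, 64.8, 52.8 and 59.3 CPM).

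Jag1 in smooth muscle-like cells was lower in the old libraries. These cells (457, 1332, 554 and 291) held 245, 219, 127 and 139 CPM, so both old libraries lay below both young ones. They came from 3 clusters in different parts, with 198 of 457, 328 of 1332, 133 of 554 and 59 of 291 cells in cluster 12. The log2 ratio of old over young was -0.95 (-1.11 to -0.79) in WT Cre and -0.65 (-0.86 to -0.46) between the EC-K4KO-labelled libraries. Pericyte-like cells did not share that order, at 188, 241, 172 and 189 CPM.

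**Figure D5:**
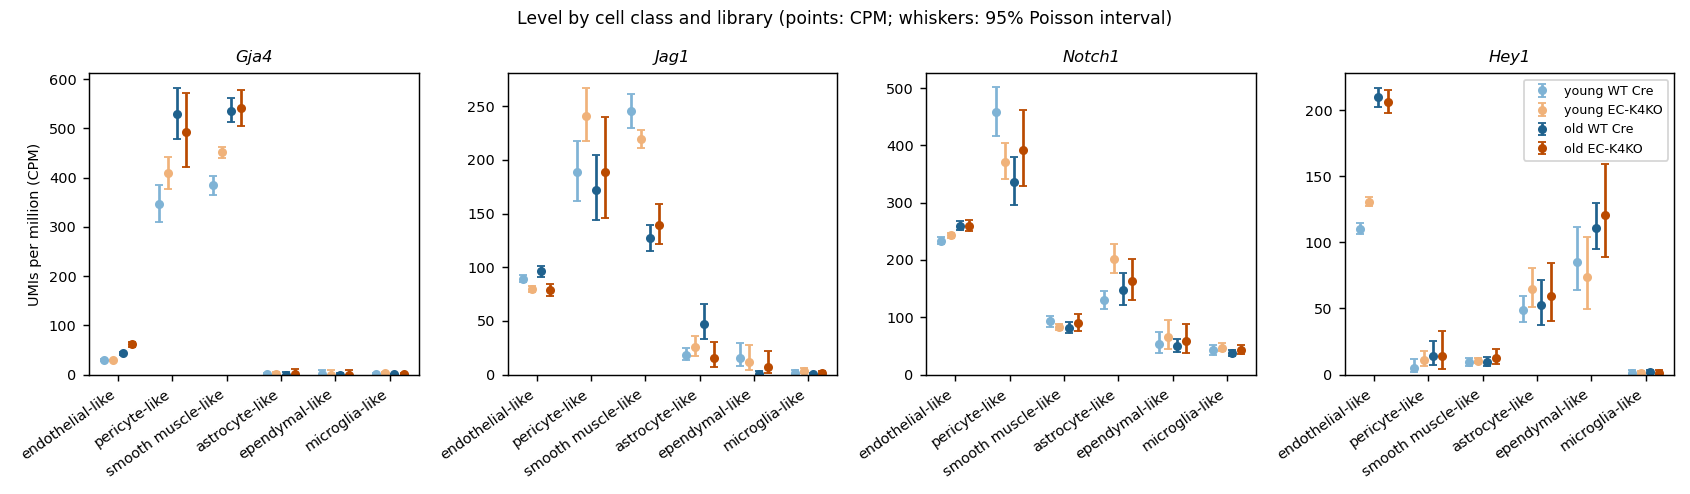
Level of Gja4, Jag1, Notch1 and Hey1 by cell class (horizontal axes) in CPM (axes starting at 0), with 1 point per library and the 95% Poisson interval as whiskers. Gja4 is far higher in pericyte-like and smooth muscle-like cells than in endothelial-like cells, and Jag1 in smooth muscle-like cells is lower in the old libraries (127 and 139 CPM) than in the young ones (245 and 219 CPM).

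Since mural cells hold Gja4 and Jag1, mural markers in endothelial-like cells are given beside them. The summed level of 5 smooth muscle markers there was 87.7, 162, 124 and 31.6 CPM, and that of 6 pericyte markers 121, 175, 147 and 54.3 CPM. In arterial-like cells the sums were 44.6, 104, 30.8 and 27.5 CPM for smooth muscle and 29.6, 50.6, 18.5 and 19.1 CPM for pericyte markers. Cells that held any UMI of these markers made up 42.0%, 69.9%, 18.1% and 16.0% of endothelial-like cells. These shares ranked as the median depths did (6328, 9875.5, 4694 and 3770 UMIs), so leaving these cells out can also select by depth. Without them, the old pair ratio of Gja4 was 0.99 in endothelial-like and 1.09 in arterial-like cells, and that of Gkn3 was 1.08 and 1.06. For the young pair these ratios were -0.43 and -0.63 for Gja4 (past 1.5-fold in arterial-like cells) and -0.96 and -1.21 for Gkn3. Jag1 had -0.14 and -0.62 in the young pair, the latter past 1.5-fold, and -0.23 and -0.28 in the old one. Sums of 5 erythroid markers came to 323, 673, 469 and 730 CPM in endothelial-like cells and 224, 715, 562 and 1197 CPM in arterial-like cells. The 13 dissociation and early response genes summed to 14421, 18507, 24818 and 22330 CPM in endothelial-like cells, higher in both old libraries, where Hey1 was also higher. The part of erythroid, dissociation and mural RNA in these results was not tested.

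Other genes of the Notch pathway were counted in endothelial-like cells, where 1.13%, 1.29%, 6.89% and 5.54% of all genes were called lower and 1.38%, 1.4%, 4.28% and 4.21% higher. Of 17 measured genes for receptor processing and glycosylation, 0 were called in the old pair and 1 was called lower in each of the other 3 comparisons, with medians of -0.07, -0.04, -0.33 and -0.12. Of 8 genes of the nuclear complex (Rbpj, Maml and partners) 0 were called in any, with all 8 below 0 in both age comparisons at medians of -0.13 and -0.23, near the -0.18 and -0.15 of all genes. Of 5 other targets 2 were at level. Hes1, a repressor that many pathways switch on, held 411, 404, 616 and 501 CPM, and Nrarp, a feedback inhibitor, 44.3, 46.5, 53.0 and 45.7 CPM, and neither was called. Hes1 lay just under the limit with age in WT Cre, at 1.498-fold. In arterial-like and in capillary-like cells 1 of these 2 targets was called higher with age in WT Cre. Of the other receptors and ligands 2 of 6 were at level and 0 were called. Neither connexins (2 of 7 at level) nor the receptors of ephrin-B2 (2 of 5) had a call between labels, and 1 receptor, EphB4 (Ephb4), was called lower with age in WT Cre (50.5 and 27.9 CPM). Ephb4 was also lower with age between the EC-K4KO-labelled libraries (42.9 and 28.9 CPM), without a call. In arterial-like cells 1 of these receptors was called lower in each age comparison.

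Other arterial genes were called in both directions. Of 18 at level, 1 was called higher and 1 lower in the young pair, 1 higher and 2 lower in the old pair, 4 higher with age in WT Cre, and 2 higher and 1 lower with age between the EC-K4KO-labelled libraries, with medians of -0.24, -0.06, -0.00 and 0.16. The shares of all genes called higher and lower were 1.38% and 1.13%, 1.4% and 1.29%, 4.28% and 6.89%, and 4.21% and 5.54% in these comparisons. Stmn2, a microtubule regulator, held 155, 41.8, 308 and 96.6 CPM. It was lower in both EC-K4KO-labelled libraries, with log2 ratios of -1.89 (-1.97 to -1.81) and -1.67 (-1.77 to -1.58), and was higher in the old libraries of each label. Eln, which encodes elastin, was higher under that label at both ages (46.8, 72.5, 46.4 and 82.9 CPM). Mgp, an inhibitor of calcification, was higher with age (670, 504, 1233 and 1278 CPM). Stmn2 and Mgp are among the markers that named the arterial-like cells.

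Among venous genes most calls were higher. Of 10 at level, 3 were called higher in the young pair, 2 higher in the old pair, 3 higher and 1 lower with age in WT Cre, and 5 higher with age between the EC-K4KO-labelled libraries, against the shares of all genes given above. Ackr1, a chemokine-binding receptor of venules, had log2 ratios of 1.21 and 0.85 between labels and 2.95 and 2.59 with age. Lcn2, which binds bacterial iron carriers, had 2.09 and 1.40 between labels and 2.64 and 1.95 with age. Ackr1 and Lcn2 are among the markers that named the venous-like cells. Of the 13 early response genes 1 was called higher between labels in young libraries and 0 in old ones. With age 6 were higher in WT Cre, and 2 were higher and 1 (Fos, at -0.60) lower between the EC-K4KO-labelled libraries, where 7 lay above 0 and 6 below. Ier3 and Hspa1a were called higher in both age comparisons. Ier3, at 1542 and 4965 CPM in the EC-K4KO-labelled libraries, made up most of the higher sum there.

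Likeness to the members was measured over 12 sums (3 segments in 4 libraries) as Pearson's r of log2(CPM + 1) among 8424 genes. The sums share libraries and segments, so r mixes differences between segments with those between libraries, and their parts were not split. The closest genes to Gkn3 were Heg1, Cdh13 and Fgfr1, each at r = 0.99, and those to Dll4 were Alpl, Clec1a and Unc5b, at 0.99 to 0.98. Bmx ran closest with Gm21860, Timp3 and Antxr1, at 0.97. Among the members themselves, r was highest between Hey1 and Efnb2 (0.985) and between Gja4 and Gja5 (0.984). The lowest was 0.702, between Jag1 and Hey1.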

How the data were processed

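Deposited tables hold raw counts of UMIs by gene and barcode. Per the file headers, Cell Ranger 6.0.2 made them, and the authors applied no visible scaling. The submitters' processing notes also name mm10, GRCm38 and Seurat. The read end and the annotation are not given in the sources used here. Versioned identifiers matched GENCODE M21 (GRCm38) for 55094 of 55487 genes, which gave the positions. The members and gene lists were chosen with earlier results of these data known, and rules for naming clusters were set after clusters had been seen.

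Barcodes numbered 5324, 8358, 7298 and 5442 with 46794601, 88812581, 51945411 and 30655769 UMIs, in the order young WT Cre, young EC-K4KO-labelled, old WT Cre, old EC-K4KO-labelled. A cell was kept from 500 genes and 1000 UMIs up, if no more than 10% of its UMIs were mitochondrial. Doublets were scored with Scrublet (scanpy 1.11.5), whose automatic limit marked 50, 150, 118 and 39, so the highest scores were removed at 0.8% per 1000 cells (175, 385, 270 and 147). Clusters came from 2000 variable genes without the members, other Notch genes, connexins and Klf4, with 30 components, 20 neighbours and Leiden resolution 1 (leidenalg 0.10.2). Of 32 clusters 10 were endothelial-like and 4 stayed unnamed (3.25%, 5.98%, 5.65% and 10.6% of cells). A name needed at least 3 and at least 50% of a class's markers, each at 25% of its highest cluster and at 20 CPM. Sub-clusters were left unnamed where genes of another class led them, and their cells stayed in the endothelial-like sums.

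UMIs were summed per library and class. CPM has exact Poisson intervals, ratios (0.5 UMIs added) exact conditional binomial intervals, and shares exact Clopper-Pearson intervals, all at 95%. A share of 0 is bounded by a floor of 3 counts. UMIs of 1 library are not replicates. Calls used a limit of 1.5-fold and genes of 10 CPM or more on average. Ratios and intervals were run on simulated Poisson counts with known folds, the kind of counts the intervals assume. That run could not show how the intervals fare where UMIs gather in some cells. Scaling alternatives used edgeR 4.0.16 and DESeq2 1.42.0, and other alternatives changed the filters, doublet removal, cell weights, depth, segments and resolution. All members are named. Genes of other lists are named if they passed 1.5-fold in the same direction in both pairs of labels or both age comparisons. Ephb4, Fos, Hes1 and Nrarp were chosen after their values were seen. The genes most like Hey1 are not reported here.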

Additional observations from a re-analysis of the deposited data

Results flagged for a closer look

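5 results were marked for a second look. Gkn3 in endothelial-like cells moved opposite ways between the labels at the 2 ages, at -0.54 in the young and 1.10 in the old pair (log2), a gap of 1.64. In arterial-like cells the same was seen for Gkn3 (-0.93 and 1.12, a gap of 2.05), Gja4 (-0.41 and 0.86, a gap of 1.27) and Gja5 (-0.51 and 0.64, a gap of 1.14). None of these gaps was tested, since each group holds 1 library. Gkn3 was chosen from the old EC-K4KO-labelled library, so its old ratios, and the gaps built on them, only describe the choice. For Gja4 and Gja5 the young ratio turned positive when cells were named one by one (0.23 and 0.27).

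The last comes from cells left out of the endothelial-like class, which entered the ratios only in 1 alternative. A cluster with endothelial and erythroid markers, left unnamed, held 109, 319, 124 and 106 cells in the order young WT Cre, young EC-K4KO-labelled, old WT Cre, old EC-K4KO-labelled. Gkn3 stood at 381, 164, 163 and 324 CPM there, with a log2 ratio of -1.22 in the young and 0.99 in the old pair. These cells come from the same libraries, so this old ratio is no separate support.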

How the results depend on the processing

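No paired analysis was possible because each group holds 1 library and all carry the same replicate number. For the same reason no library could be left out. The young pair count of 0 became 1, Gkn3 lower, under the stricter cell filter (at least 1000 genes, 2000 UMIs and at most 5% mitochondrial UMIs), with segment shares held equal, and under alternatives chosen after seeing the data: without cells holding a mural marker UMI, and with the unnamed endothelial and erythroid cluster. The old pair count of 1 became 2, with Gja4, under the stricter filter, after thinning to 1000 UMIs and without cells holding a mural UMI, and 3, with Gja4 and Bmx, with segment shares held equal. The WT Cre age count of 1 became 2 with Gja4 under TMM factors, DESeq2 size factors and no doublet removal, and 2 with Gkn3 lower after thinning and with segment shares held equal. The age count of 3 between the libraries labelled EC-K4KO ran from 2 to 4, the fourth being Gja5 with no minimum level, and Hey1 was under 1.5-fold with segment shares held equal and Gja4 (1.08) was under it with cells weighted equally (0.53). TMM and size factors raise age ratios by about the shift of all genes. 2 ratios past 1.5-fold turned sign: Gja5 with age between the libraries labelled EC-K4KO went from 0.63 to -0.49 in endothelial-like cells after thinning, and with age in WT Cre from -0.65 to 0.23 in arterial-like sub-cluster 5 alone. Ratios under 1.5-fold also turned, among them after thinning Gja4 with age in WT Cre (0.57 to -0.18) and endothelial Gja5 in the young pair (-0.22 to 1.67), and with cells named one by one arterial-like Gja4 (-0.41 to 0.23) and Gja5 (-0.51 to 0.27) in the young pair and Gja5 with age between the libraries labelled EC-K4KO (0.49 to -0.34). The causes were not tested. Gkn3 kept its directions in all 4 comparisons under the 11 alternatives run on its endothelial ratios, from 1.08 to 1.26 in the old and from -0.96 to -0.36 in the young pair. The alternatives re-use the same libraries, and Gkn3 was chosen from the old EC-K4KO-labelled one, so they add no support. Gja5 rests on only 49 to 131 UMIs per library.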
